A study of Mus musculus with 4 samples.

Results

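Lasting and acute loss of Dyrk2 were set side by side in primary mouse embryo fibroblasts (MEFs), which are taken from embryos and kept for few passages, short of an immortal line. The comparison held every gene with at least 1 FPKM (fragments per exonic kilobase, scaled to 1000000 fragments) in the Dyrk2-KO library or in the siDyrk2 library. This was 12510 of 55573 genes, 11014 of them protein-coding, and the other 43063 were under 1 FPKM in both libraries. At the edge of that choice, 109 genes had a higher value less than 0.05 FPKM above the minimum, and 115 missed it by at most 0.05 FPKM.

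The series was made to study how Dyrk2 acts on Hedgehog signalling. Its groups were wild-type MEFs, Dyrk2-/- MEFs (the knockout), wild-type MEFs with a non-targeting siRNA, named siNegative (siNeg), and wild-type MEFs with an siRNA directed at Dyrk2 (siDyrk2), with 1 library each. All 4 cultures received 100 nM SAG for 24 h, so no library shows the cells without an active pathway. The labels name neither the embryos of origin, nor the allele, nor how long before harvest the siRNA was added. The knockout and siDyrk2 cultures therefore differ in how long and how fully Dyrk2 was missing and in having been transfected. They also differ in embryo of origin, since a Dyrk2-/- culture and a wild-type culture cannot share an embryo. These differences cannot be told apart. There is no replicate, so no test was made and each difference is between 2 libraries.

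Hedgehog ligands bind the receptor Patched and release its brake on Smoothened, which gathers in the primary cilium and lets the GLI transcription factors switch on target genes. SAG binds Smoothened and starts the pathway without a ligand. Among the targets are Gli1 and Patched themselves, which makes their transcripts a common readout of the pathway in MEFs. DYRK2 is a protein kinase of the dual-specificity tyrosine-regulated family. An siRNA lowers a transcript for days in cells that had developed with the gene intact, whereas knockout cells lacked it throughout development.

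The 4 libraries held an estimated 20 to 23.9 M fragments on genes (M, 1000000), 21.9 M in the knockout and 21.5 M with siDyrk2. All 8 fibroblast markers were measured, 5 of them higher in the knockout than with siDyrk2 and 3 lower, among the latter Thy1 and Pdgfrb. Their summed level, which the most abundant members weigh on most, was 7535 FPKM in the knockout, 5531 with siDyrk2, 7159 in wild type and 6913 with siNeg. Of 12 macrophage and leukocyte markers 10 were measured, and their sum was 532.5, 380.2, 266.3 and 307.0 FPKM in the same order. Lyz2, lysozyme of macrophages, led this list at 329, 196, 152 and 154 FPKM, and its close copy Lyz1 makes its value uncertain. Of 7 adipocyte markers 3 were measured (Lpl, Cd36 and Pparg), all higher in the knockout with a median log2 ratio of 0.41, and the sum over the list was 83.3, 59.8, 51.3 and 50.7 FPKM, while Adipoq and Cidec were listed at 0 in all 4 libraries. Of 6 endothelial markers only Tek was measured, at 4.52, 2.55, 4.63 and 4.11 FPKM, and Tie1 was listed at 0 throughout. The part of these markers in the results was not tested. In bulk RNA, fewer cells of a type and less RNA per cell cannot be told apart.

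The knockout library also held Y-linked transcripts that the siDyrk2 library did not. Ddx3y, a Y-linked RNA helicase, was at 8.28 FPKM in the knockout (942 fragments), 0 with siDyrk2, 0.02 in wild type and 0 with siNeg, at least 308-fold higher in the knockout than 3 fragments in the siDyrk2 library. Eif2s3y, at 4.58 FPKM, and Uty, at 1.12 FPKM, were likewise listed at 0 in the other 3 libraries. Xist, which silences one X chromosome in female cells, stood at 26.4 FPKM in the knockout, 27.5 with siDyrk2, 37.1 in wild type and 32.3 with siNeg. The Y-linked transcripts thus moved with the contrast, while Xist was present in every library, and the part of this difference in the other results was not tested.

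Most transcripts were close between lasting and acute loss. The log2 ratio used throughout is log2((knockout FPKM + 1)/(siDyrk2 FPKM + 1)), so a positive value means higher in the knockout. Its median was -0.04 over all 12510 genes with an SD across genes of 0.38, and 89.2% of the genes lay within 1.5-fold. At least 2-fold differences were seen for 151 genes higher in the knockout (1.21%) and 203 higher with siDyrk2 (1.62%), 354 in all (2.83%). By any amount, 44.5% of genes were higher in the knockout and 55.2% higher with siDyrk2.

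**Figure D1:**
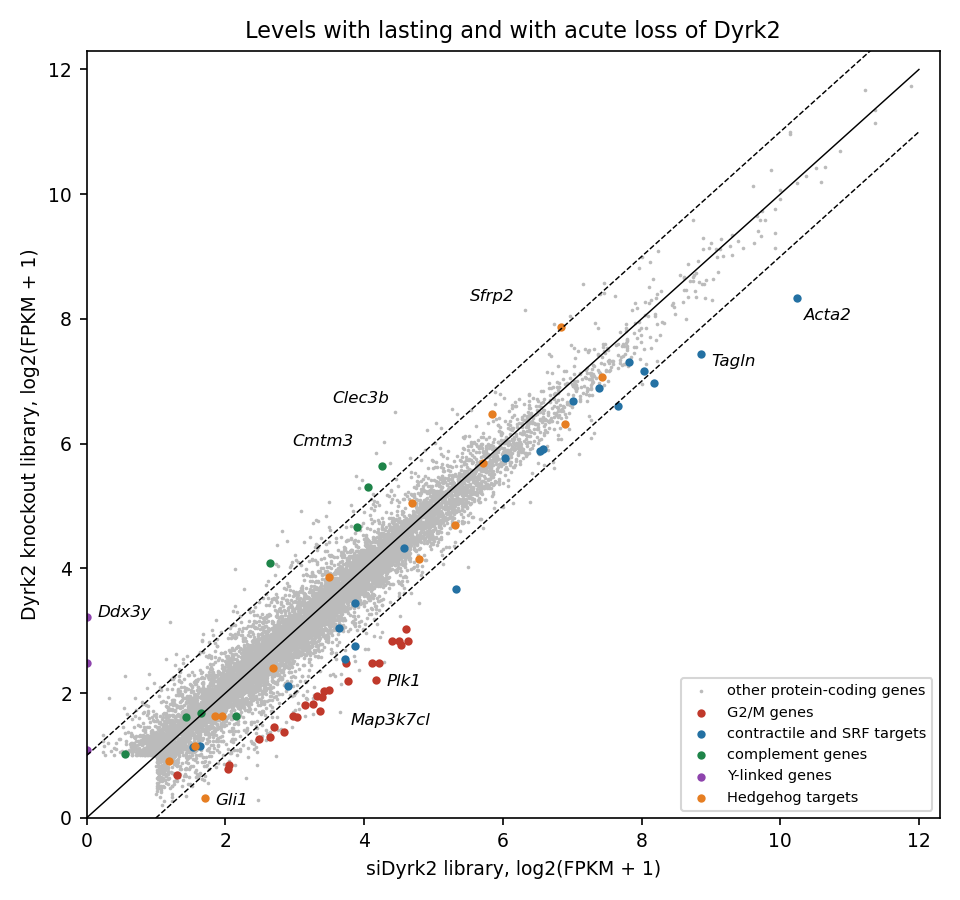
Level of every protein-coding gene in the siDyrk2 library (x) and the knockout library (y), both as log2(FPKM + 1). The solid line marks equal levels and the dashed lines 2-fold. The G2/M genes sit as a group below the diagonal, Acta2 and Tagln lie below it at high levels, and Clec3b and Sfrp2 lie above it.

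Among the protein-coding genes 105 were at least 2-fold higher in the knockout (0.953%) and 139 at least 2-fold higher with siDyrk2 (1.26%), together 244 (2.22%). By any amount 45.7% were higher in the knockout. A further 35 lay within 0.05 log2 units outside the 2-fold line, and 40 of those counted lay within 0.05 inside it. The share past 2-fold was 1.8% of 3717 genes whose higher value was 1 to 5 FPKM and 4.82% of 353 genes at 100 FPKM or more. Of the 244 genes, 67 had a higher value of 1 to 5 FPKM. The FPKM + 1 scale shrinks the ratios of low genes, so their lower share is in part set by the scale. Of the 110 genes past 2-fold that were not protein-coding, 84 had at most 20 fragments in both libraries, and they were mainly miRNA precursors (33), processed pseudogenes (30) and snoRNAs (19).

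Wild type against siNeg is the same untransfected-against-transfected pair with Dyrk2 intact, and it shares no library with the knockout and siDyrk2 pair. Its ratios were narrower, with an SD of 0.22 over protein-coding genes against 0.36, and 17 of 10896 protein-coding genes (0.156%) were past 2-fold, or 119 of 12377 genes of any type (0.961%). Across the 11014 protein-coding genes the ratios of both pairs had a Pearson r of 0.46, a description over genes that are not independent. Of the 105 genes higher in the knockout, 90 were also higher in wild type than with siNeg, with a median of 0.35 there against 1.18. Of the 139 genes higher with siDyrk2, 130 were higher in the siNeg library than in wild type too, with medians of -0.37 and -1.25. Over all 11014 protein-coding genes, 50.3% were higher in wild type than with siNeg and 49.2% were lower. After the control ratio was subtracted, 36 of the 105 and 48 of the 139 still differed at least 2-fold. The medians left were 0.92 for the 105 and -0.89 for the 139, just under the 2-fold line. The share past that line after subtraction was not counted over all protein-coding genes.

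**Figure D2:**
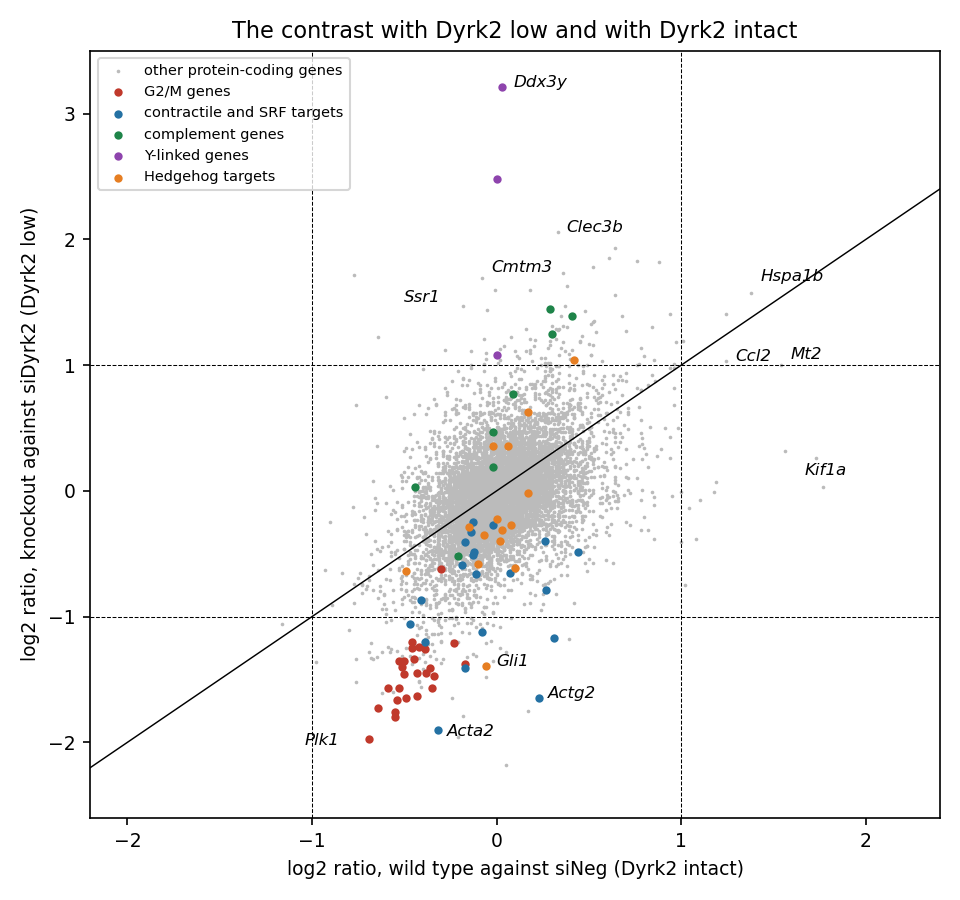
The log2 ratio of knockout to siDyrk2 (y) against the log2 ratio of wild type to siNeg (x) for protein-coding genes. Dashed lines mark 2-fold and the solid line equal ratios. The G2/M genes are low on both axes but lie below the line of equal ratios, Gli1 lies at -0.06 on the x axis, and Hspa1b, Ccl2 and Mt2 are at or past 2-fold on both axes.

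Each library was also set against each of the other 3. Knockout was at least 2-fold below every other library for 50 of the 11014 protein-coding genes (0.454%) and above every other for 13 (0.118%). The siDyrk2 library was above every other for 6 (0.0545%) and below every other for 7 (0.0636%). Wild type stood apart in this way for 0 genes, and siNeg was below the other 3 for 8 (0.0726%) and above for 0. The 50 genes lowest in the knockout included the mitotic genes Plk1, Ccnb1 and Top2a, and also Gli1.

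Dyrk2 itself, at chr10:118855603-118870209 in GENCODE M21 on GRCm38, was low in both. It was at 0.57 FPKM in the knockout and 0.81 with siDyrk2, against 6.59 in wild type and 7.06 with siNeg. The siDyrk2 level was 1.42-fold that of the knockout (1.05 to 1.93, the 95% exact interval for counting error alone, as for all intervals here). Reads from a deleted gene can remain in a knockout, so the 0.57 FPKM does not measure residual protein.

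The pathway's readouts Gli1 and Ptch1 were low in both libraries, and Gli1 was lower after lasting loss. Gli1 (chr10:127329882-127341974), the target transcription factor that amplifies the pathway, was at 0.24 FPKM in the knockout (26 fragments), 2.25 with siDyrk2 (241 fragments), 28.8 in wild type and 30.2 with siNeg. The siDyrk2 level was 9.38-fold that of the knockout (6.29 to 14.8). Ptch1, the Hedgehog receptor that restrains Smoothened, was at 1.23, 1.95, 16.32 and 16.03 FPKM in that order, 1.59-fold higher with siDyrk2 (1.39 to 1.81). Both were far under either control, and the gap between knockout and siDyrk2 was much wider for Gli1 than for Ptch1.

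Other low targets held the same order. Hhip, a membrane protein that traps Hedgehog ligands, was at 0.15 FPKM in the knockout, 0.25 with siDyrk2, 3.87 in wild type and 2.64 with siNeg. It did not reach 1 FPKM in the compared pair, so it is not among the 12510 genes. The apoptosis inhibitor Bcl2 was at 2.09, 2.61, 4.32 and 4.31 FPKM, 1.25-fold higher with siDyrk2 (1.09 to 1.42). The forkhead genes Foxc2, at 2.10 and 2.85 FPKM, and Foxd1, at 0.88 and 1.27 FPKM, were also slightly lower in the knockout than with siDyrk2.

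Over the list of 22 Hedgehog targets, 15 were measured, 11 of them lower in the knockout and 4 higher, beside 53.9% of protein-coding genes being lower. The list median was -0.29 (-0.58 to 0.36 as an order-statistic interval over genes) against 0.02 for wild type over siNeg. Only Gli1 and Igfbp6 passed 2-fold, in opposite directions. The cyclin Ccnd1, which drives entry into S phase, was at 78.6 FPKM in the knockout, 118 with siDyrk2, 132 in wild type and 142 with siNeg. The Notch ligand Jag1 was at 25.0, 38.5, 30.1 and 28.0 FPKM, and was thus highest with siDyrk2. Igfbp6, which binds insulin-like growth factors, was at 233, 113, 160.0 and 119 FPKM, 2.07-fold higher in the knockout than with siDyrk2. The Wnt modulator Sfrp1 was at 88.3, 56.7, 67.5 and 59.9 FPKM. The list therefore did not go one way, and its members measured at 10 FPKM or more had a median of -0.02.

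The 3 co-receptors that help cells bind Hedgehog ligands all had higher levels in the knockout, and their median was 0.74. Gas1, which is anchored to the outer membrane, was at 185 FPKM in the knockout, 130 with siDyrk2, 111 in wild type and 96.7 with siNeg. Cdon was at 60.2, 33.3, 51.5 and 43.2 FPKM, and its relative Boc at 35.02, 20.57, 30.10 and 25.58 FPKM. For Cdon and Boc the knockout was the highest and siDyrk2 the lowest of the 4, whereas both low-Dyrk2 libraries were above both controls for Gas1. The same pair of controls gave a median of 0.23 for these genes.

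The signalling chain between receptor and target showed no common direction: of 36 pathway components 29 were measured, 16 higher in the knockout and 13 lower, with a median of 0.07. The receptor Smo, which SAG binds, was at 33.3 FPKM in the knockout, 31.0 with siDyrk2, 35.4 in wild type and 33.9 with siNeg. Gli2, the main activating GLI factor, was at 8.66 and 9.05 FPKM against 20.4 and 20.8 in the controls, and its siDyrk2 to knockout ratio of 1.05 had an interval of 0.968 to 1.13. Gli2 was thus about as low after lasting as after acute loss, unlike Gli1. Gli3, whose shortened form is the main repressor, was at 8.64, 7.07, 8.05 and 7.98 FPKM.

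Protein kinase A, which phosphorylates GLI proteins and holds the pathway off, had its subunits Prkacb and Prkar2a on opposite sides. Their ratios of 1.34 and -0.98 were the highest and lowest among the 29 measured pathway components. The catalytic subunit Prkacb was at 15.8 FPKM in the knockout, 5.62 with siDyrk2, 15.8 in wild type and 10.7 with siNeg, 2.81-fold higher in the knockout than with siDyrk2 (2.62 to 3.01). The regulatory subunit Prkar2a was at 11.1, 22.9, 13.4 and 20.8 FPKM, 2.06-fold higher with siDyrk2 (1.93 to 2.19). For Prkar2a both transfected cultures were high, with a control ratio of -0.60, and for Prkacb siDyrk2 was the lowest of the 4. Gpc3, a glypican that binds Hedgehog ligands, was outside the list and was at 87.6 FPKM in the knockout, 39.6 with siDyrk2, 98.9 in wild type and 97.2 with siNeg.

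Other DYRK and HIPK kinases showed no 2-fold difference, and the median was 0.14, with 4 of 5 measured higher in the knockout. Of 51 genes within 3 Mb of Dyrk2 on chromosome 10, 27 were measured, with a median of -0.12 and 0 past 2-fold. In this set 18 were lower in the knockout, beside 53.9% of protein-coding genes. The highest ratio, 0.74, was that of Lyz2, the leading macrophage marker given above. The lowest of these neighbours was Hmga2, a chromatin protein of embryonic cells, at 17.5 FPKM in the knockout, 33.8 with siDyrk2, 25.4 in wild type and 47.8 with siNeg. Its ratio of -0.91 stood beside -0.89 for the controls. Ptprb, a receptor phosphatase, had a nearly equal ratio at low levels, 0.15, 1.13, 0.22 and 0.59 FPKM, which without the pseudocount is 7.53-fold higher with siDyrk2 (5.45 to 10.5, from 44 and 323 fragments). The count of 0 past 2-fold therefore holds on the FPKM + 1 scale only.

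**Figure D3:**
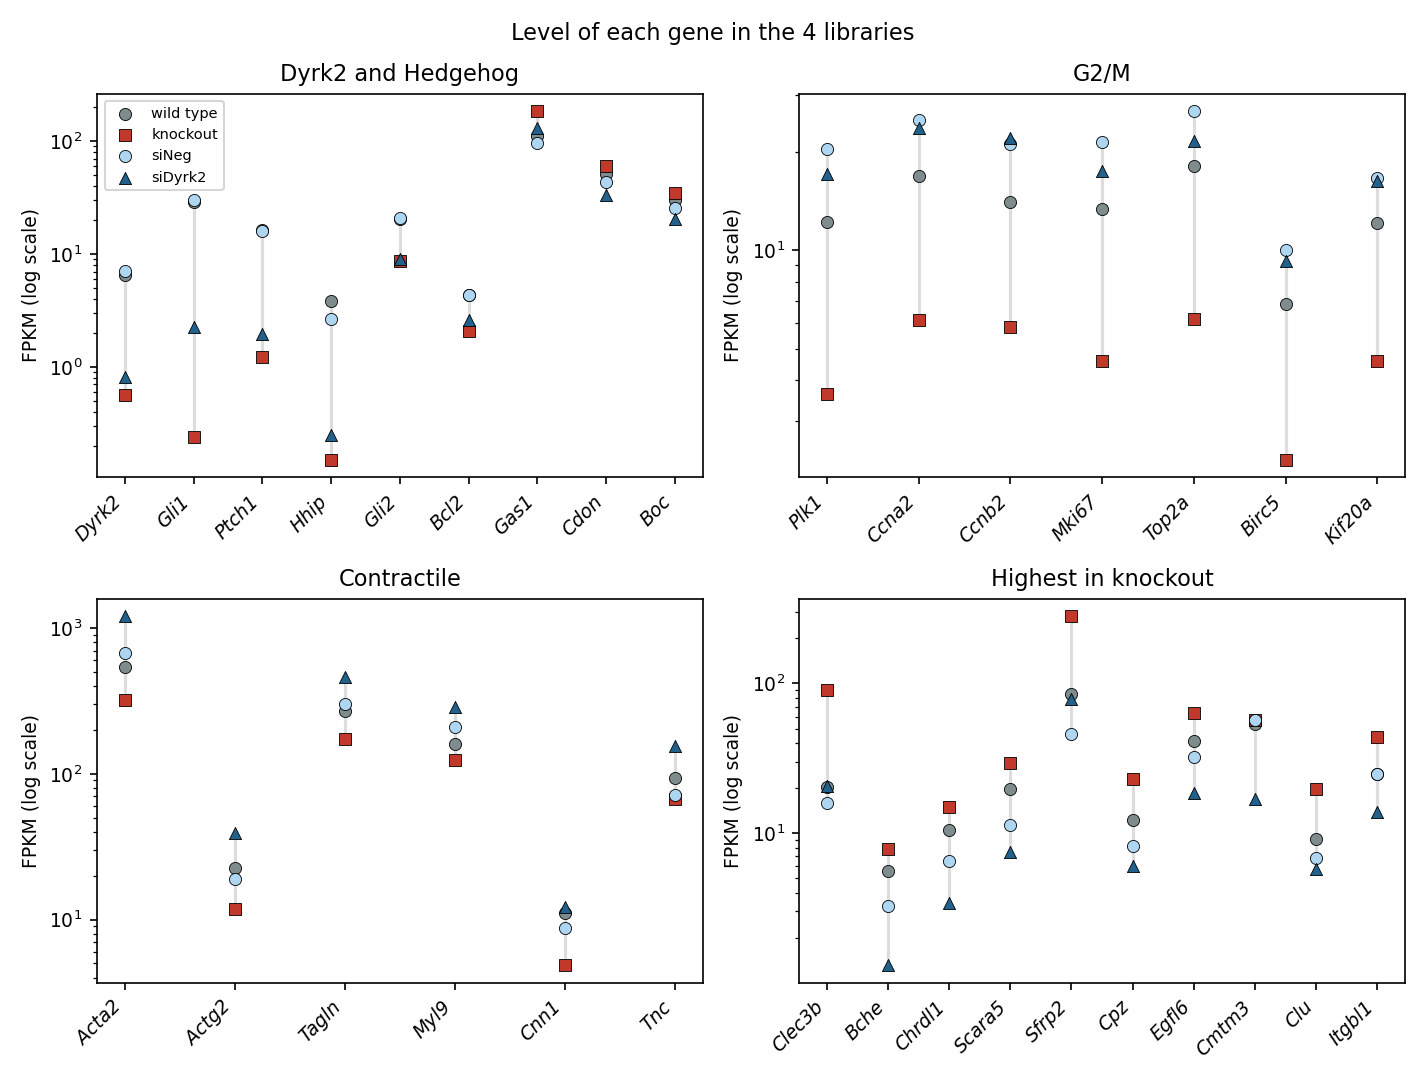
FPKM on a log axis for named genes in the 4 libraries, 1 point per library. Red squares (knockout) are lowest for all G2/M genes shown, dark triangles (siDyrk2) are highest for all contractile genes shown and for Tnc, and both low-Dyrk2 libraries lie far under the controls for Gli1, Ptch1 and Hhip.

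Genes of mitosis were lower in the knockout than with siDyrk2 as a group. All 26 measured members of the 28-gene G2/M list were lower in the knockout, 25 of them at least 2-fold, where 1.26% of protein-coding genes were. The list median was -1.45, with an order-statistic interval over genes of -1.57 to -1.35. The knockout was the lowest of the 4 libraries for all 26, against 32.5% of protein-coding genes. The promoters of 3 of them are shown because CCAAT boxes, which bind the factor NF-Y, recur just upstream of many mitotic genes.

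The 250 bases before the annotated start are given 5′ to 3′ on the gene's strand, from RefSeq on GRCm38.p6, with CCAAT, or ATTGG where it lies on the other strand, in capitals. Plk1 is at chr7:122159185-122159434 (plus strand), Ccnb2 at chr9:70421555-70421804 (minus strand) and Mki67 at chr7:135716380-135716629 (minus strand).
Plk1: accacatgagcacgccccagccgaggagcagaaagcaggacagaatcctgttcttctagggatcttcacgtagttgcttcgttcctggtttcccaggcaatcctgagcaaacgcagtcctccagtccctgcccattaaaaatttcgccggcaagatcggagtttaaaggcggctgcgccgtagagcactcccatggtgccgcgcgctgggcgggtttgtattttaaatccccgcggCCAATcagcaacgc
Ccnb2: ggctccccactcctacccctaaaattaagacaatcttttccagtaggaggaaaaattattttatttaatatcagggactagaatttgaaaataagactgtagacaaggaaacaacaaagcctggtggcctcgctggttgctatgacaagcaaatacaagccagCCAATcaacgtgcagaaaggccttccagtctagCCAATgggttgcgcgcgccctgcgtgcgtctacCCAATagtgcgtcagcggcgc
Mki67: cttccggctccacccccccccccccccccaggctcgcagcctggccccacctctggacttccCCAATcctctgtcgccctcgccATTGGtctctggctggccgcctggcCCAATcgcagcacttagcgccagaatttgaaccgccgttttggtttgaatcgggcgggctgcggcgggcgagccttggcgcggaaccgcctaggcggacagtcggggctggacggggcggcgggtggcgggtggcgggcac

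The Plk1 window holds 1 CCAAT box, 14 bases before the start, and those of Ccnb2 and Mki67 hold 3 each. A promoter sequence was found for 21 of the 26 genes, and 18 of them (85.7%) held CCAAT on either strand, compared with 40.8% of 8724 measured genes and 33.8% of 32851 promoters. The element TTTGAA, known as the cell cycle genes homology region, was in 8 of the 21 (38.1%), compared with 12.4% of measured genes and 16% of all promoters. CCAAT was not particular to mitotic genes, since 14 of 22 promoters found for genes of G1/S and DNA replication (63.6%) held it too. The GLI motif TGGGTGGTC was in 0 of 9 promoters found for Hedgehog targets, compared with 0.2% of measured genes. The promoter shares depend on which known genes a list holds, so they are not a result of these libraries. A match says only that the letters are present.

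Plk1, the kinase that drives entry into mitosis, was at 3.62 FPKM in the knockout, 17.1 with siDyrk2, 12.2 in wild type and 20.4 with siNeg, 4.73-fold higher with siDyrk2 than in the knockout (4.01 to 5.60). Ccna2, a cyclin of S phase and G2, was at 6.11, 23.8, 16.9 and 25.1 FPKM. The mitotic cyclin Ccnb2 was at 5.82, 22.1, 14.1 and 21.2 FPKM. In each of these the siDyrk2 value lay among or near the controls and the knockout value lay well below both.

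The proliferation marker Mki67 was at 4.58 FPKM in the knockout, 17.6 with siDyrk2, 13.4 in wild type and 21.4 with siNeg. Top2a, which untangles chromosomes, was at 6.15, 21.6, 18.1 and 26.7 FPKM, and Birc5 (survivin), of the chromosomal passenger complex, was at 2.28, 9.27, 6.86 and 10.02 FPKM. The transcription factor Foxm1, which activates many mitotic genes, followed the same order at 3.92, 10.7, 8.30 and 12.1 FPKM. Cdc25c, the phosphatase that activates Cdk1, was the only measured member under 2-fold, with a ratio of -0.62.

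The controls differed in the same direction by less. The G2/M median was -0.46 for wild type over siNeg, so both transfected cultures held more of these transcripts, and the median of the differences between the ratios was -1.03. Within each pair, the median was -1.10 for knockout over wild type and -0.12 for siDyrk2 over siNeg, values that share libraries with the ratio above.

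Genes of G1/S and DNA replication followed with smaller differences. All 28 were measured and lower in the knockout, 3 at least 2-fold, where 53.9% and 1.26% of protein-coding genes were. Their median was -0.72 (-0.85 to -0.56 over genes) against -0.13 for the controls. The knockout was the lowest of the 4 for all 28, against 32.5% of protein-coding genes. Rrm2, a subunit of the reductase that makes deoxyribonucleotides, was at 9.88 FPKM in the knockout, 26.6 with siDyrk2, 25.1 in wild type and 30.9 with siNeg. Uhrf1, which maintains DNA methylation at replication, was at 3.85, 10.9, 13.1 and 14.4 FPKM. Mcm5, of the replicative helicase, was at 4.89, 11.9, 12.5 and 15.6 FPKM. For all 3 genes the siDyrk2 value lay close to the controls or a little under them.

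Inhibitors of cyclin-dependent kinases did not share a direction. Cdkn1c (p57), imprinted and found in cells that leave the cycle, was at 381 FPKM in the knockout, 175 with siDyrk2, 208 in wild type and 186 with siNeg, 2.17-fold higher in the knockout than with siDyrk2 (2.11 to 2.23). Cdkn2c (p18) was at 4.82, 11.1, 9.07 and 10.6 FPKM, and so was lower in the knockout, like the replication genes. Cdkn1a (p21), a p53 target, was at 176, 149, 169 and 141 FPKM, and Cdkn2a, which accumulates in ageing cultures, at 37.7, 50.0, 43.8 and 44.5 FPKM. The 20 p53 targets had a median of -0.02 and 0 past 2-fold, a sign that turned under trimmed-mean (TMM) and median-of-ratios scaling.

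Sterol and lipid synthesis genes were lower in the knockout throughout. The 24 cholesterol synthesis genes were lower without exception, beside 53.9% of protein-coding genes. Their median was -0.65 (-0.71 to -0.50 over genes) against -0.03 for the controls. The knockout was the lowest of the 4 for 23, against 32.5% of protein-coding genes. Fdps, which makes farnesyl diphosphate, was at 7.09 FPKM in the knockout, 14.8 with siDyrk2, 13.0 in wild type and 13.1 with siNeg. The 12 fatty acid synthesis genes were all lower as well, with a median of -0.37 (-0.69 to -0.17). Their largest difference was in the desaturase Scd2, at 123, 258, 182 and 195 FPKM. For Fdps the controls were level and for both genes the knockout was the lowest of the 4.

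Contractile genes were higher with siDyrk2, which stood above the controls, than in the knockout, which stood below them. All 20 measured members of the 22-gene list of contractile and SRF targets were lower in the knockout, 7 at least 2-fold. The shares over protein-coding genes were 53.9% and 1.26%. The list median was -0.66 (-1.12 to -0.49 over genes). The siDyrk2 library was the highest of the 4 for 18 of the 20, compared with 31.1% of protein-coding genes. The knockout was the lowest for 16, compared with 32.5%. The median was -0.12 for wild type over siNeg. Within each pair, it was -0.35 for knockout over wild type and 0.36 for siDyrk2 over siNeg, which share libraries with the ratio. SRF, the serum response factor, binds the CArG box, and the 2 promoters with that box printed here belong to the myosin light chain gene Myl9 and the calponin gene Cnn2.

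The 250 bases before the start are given as before, with the CArG box in capitals. Myl9 is at chr2:156775214-156775463 (plus strand) and Cnn2 at chr10:79988350-79988599 (plus strand).
Myl9: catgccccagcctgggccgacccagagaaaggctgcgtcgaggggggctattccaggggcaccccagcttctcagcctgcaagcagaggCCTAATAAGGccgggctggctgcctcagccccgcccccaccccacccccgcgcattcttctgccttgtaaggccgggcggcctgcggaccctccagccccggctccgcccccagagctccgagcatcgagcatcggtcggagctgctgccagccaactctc
Cnn2: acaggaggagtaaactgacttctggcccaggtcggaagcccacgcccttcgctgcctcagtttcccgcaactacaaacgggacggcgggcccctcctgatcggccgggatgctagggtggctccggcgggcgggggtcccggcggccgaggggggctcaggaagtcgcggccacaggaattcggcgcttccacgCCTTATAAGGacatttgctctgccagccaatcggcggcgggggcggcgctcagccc

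The box lies 161 bases before the start of Myl9 and 56 before that of Cnn2. It was in 5 of 17 promoters found for the contractile and SRF targets (29.4%: Cnn2, Myl9, Vcl, Srf and Filip1l). The share was 1.4% of measured genes and 1.47% of all promoters. The list was chosen in part as SRF targets, which favours the box, so this contrast is not a result of these libraries. Myl9 was at 125 FPKM in the knockout, 289 with siDyrk2, 159 in wild type and 209 with siNeg, and Cnn2 at 143, 261, 189 and 252 FPKM. Vcl (vinculin) and Srf itself, with ratios of -0.27 and -0.41, were closer between the libraries.

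Acta2 (chr19:34241090-34255590), the smooth muscle actin of contractile fibroblasts, was at 322 FPKM in the knockout, 1205 with siDyrk2, 537 in wild type and 669 with siNeg, 3.74-fold higher with siDyrk2 (3.67 to 3.81). Tagln (transgelin), which binds actin filaments, was at 173, 462, 268 and 303 FPKM. Actg2, the enteric smooth muscle actin, was at 11.75, 39.04, 22.47 and 19.03 FPKM, and Cnn1 (calponin 1) at 4.86, 12.2, 11.1 and 8.80 FPKM. For each the knockout was the lowest and siDyrk2 the highest of the 4. The actin genes are close in sequence, so reads could be split among Acta1, Acta2 and Actg2.

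Several secreted and cytoskeletal genes were highest with siDyrk2. Map3k7cl was at 2.24 FPKM in the knockout, 11.6 with siDyrk2, 2.66 in wild type and 3.24 with siNeg. Tubb3, a tubulin best known from neurons, was at 4.67, 18.6, 7.81 and 8.95 FPKM, and the matrix protein Tnc (tenascin C) at 67.1, 154, 93.8 and 71.4 FPKM. In all, 6 protein-coding genes were at least 2-fold above all 3 other libraries with siDyrk2, among them Acta1, Map3k7cl, Ptprz1, Rgs4 and Sprr2k. This count was made after the values were seen.

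Targets of YAP, TGF-beta and Notch gave less even lists, beside 53.9% of all protein-coding genes being lower in the knockout. Of 14 YAP targets 12 were lower, 2 at least 2-fold, where 1.26% of protein-coding genes were. Their median was -0.26 (-0.79 to -0.01 over genes) against -0.07 for the controls. Ccn2, a matricellular YAP and TGF-beta target, was at 32.4 FPKM in the knockout, 83.3 with siDyrk2, 47.0 in wild type and 63.3 with siNeg, while Wwtr1 (TAZ), the paralogue of YAP, was at 53.7, 24.3, 44.8 and 41.9 FPKM. Ccn2 and Wwtr1 thus differed in opposite directions. Of 14 TGF-beta targets and ligands 9 were lower, with a median of -0.31 and an interval that spans 0 (-0.54 to 0.09), and Tgfb3 was at 32.2, 69.9, 45.2 and 47.9 FPKM. Of 9 Notch genes 7 were lower, with a median of -0.46 (-0.61 to 0.05), and the effector Heyl was at 0.56, 3.91, 1.86 and 2.37 FPKM.

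Many of the highest ratios belonged to genes of secreted proteins, named here by rule and not tested as a theme. Clec3b (tetranectin, chr9:123150946-123157432), which binds plasminogen, was at 90.1 FPKM in the knockout, 20.8 with siDyrk2, 20.43 in wild type and 15.99 with siNeg, 4.33-fold higher in the knockout than with siDyrk2 (3.90 to 4.81). Sfrp2, a secreted Wnt modulator, was at 281, 78.8, 85.1 and 45.8 FPKM, and the extracellular chaperone Clu (clusterin) at 19.7, 5.72, 9.17 and 6.79 FPKM. In these 3 the knockout stood at least 2-fold above every other library on the FPKM + 1 scale. The lipase inhibitor Angptl4 did too, at 17.5, 7.01, 5.13 and 3.90 FPKM.

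A second set was graded over the 4 libraries, with siDyrk2 lowest. Bche (butyrylcholinesterase) was at 7.83 FPKM in the knockout, 1.31 with siDyrk2, 5.60 in wild type and 3.25 with siNeg. Chrdl1, a BMP antagonist, was at 14.96, 3.42, 10.45 and 6.48 FPKM. Scara5, a ferritin receptor, was at 29.2, 7.49, 19.8 and 11.3 FPKM, and Cpz (carboxypeptidase Z) was at 23.1, 6.04, 12.2 and 8.20 FPKM. These 4 were also higher in wild type than with siNeg, by 0.64, 0.61, 0.76 and 0.52 on the log2 scale.

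Among matrix genes, the proteoglycan Dcn (decorin) was at 508 FPKM in the knockout, 256 with siDyrk2, 257 in wild type and 238 with siNeg. Lum (lumican) was at 340, 175, 185 and 215 FPKM, and Col14a1, a collagen that sits on fibrils, at 79.5, 31.8, 55.8 and 44.0 FPKM. Of 11 small leucine-rich proteoglycans 8 were higher, beside 45.7% of protein-coding genes, with a median of 0.40 (-0.40 to 0.95 over genes) and 0 past 2-fold. The fibrillar and network collagens as a list had a median of 0.09, with 10 higher in the knockout and 8 lower. Col8a1 was highest with siDyrk2, at 56.3, 135, 81.0 and 106 FPKM. Col3a1 was at 2038, 1130, 1707 and 1505 FPKM, so siDyrk2 was the lowest. Sparc, a collagen-binding matrix protein, was likewise lowest with siDyrk2, at 1988, 1131, 1825 and 1939 FPKM. The fibroblast marker Thy1 ran the other way, at 159, 299, 288 and 370 FPKM.

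Of 8 measured complement genes 7 were higher in the knockout, 3 of them at least 2-fold, where 45.7% and 0.953% of protein-coding genes were. Their median was 0.62 against 0.04 for the controls, but with so few members its interval over genes spans 0 (-0.52 to 1.45). Cd55, which protects cells from complement, was at 16.03 FPKM in the knockout, 5.25 with siDyrk2, 9.17 in wild type and 7.34 with siNeg. Serping1, the inhibitor of C1, was at 49.2, 18.2, 30.4 and 22.7 FPKM, and the protease C1s1 at 38.4, 15.6, 28.4 and 22.8 FPKM. Macrophage markers were higher in the knockout as well, 8 of 10 with a median of 0.22, and 0 were past 2-fold; their part in the complement result was not tested. Of 13 genes of the insulin-like growth factor axis 11 were higher, with a median of 0.43 (0.02 to 0.61). Igfbp5 was at 377, 141, 261 and 136 FPKM, with a control ratio of 0.94 beside its 1.41.

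A few genes were low with siDyrk2 alone. Cmtm3, a MARVEL domain protein, was at 57.0 FPKM in the knockout, 17.0 with siDyrk2, 53.8 in wild type and 56.9 with siNeg. Ssr1, a subunit of the translocon-associated complex of the endoplasmic reticulum, was at 26.4, 8.92, 29.2 and 33.2 FPKM. For both genes the knockout was within the range of the controls or just outside it, and siDyrk2 was the lowest of the 4. The 7 genes at least 2-fold below all 3 other libraries with siDyrk2 were Cmtm3, Fgl2, Gfra2, Gpc3, Mgst3, Ssr1 and Tmx3, a set chosen after the values were seen.

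Some stress and inflammatory genes differed between untransfected and transfected cultures whether or not Dyrk2 was low. Hspa1b, an inducible heat shock protein, was at 32.6 FPKM in the knockout, 10.3 with siDyrk2, 19.5 in wild type and 6.86 with siNeg, with log2 ratios of 1.57 and 1.38, and its near-identical copy Hspa1a makes either value uncertain. The chemokine Ccl2 was at 58.9, 28.4, 28.8 and 11.6 FPKM, with ratios of 1.03 and 1.24. The metallothionein Mt2 was at 92.4, 45.5, 50.6 and 16.8 FPKM, with ratios of 1.0 and 1.54. The median of 18 immediate early genes was 0.37 (0.23 to 0.61), and the controls gave 0.47. In this list 16 were higher in the knockout, beside 45.7% of protein-coding genes. For Hspa1b, Ccl2 and Mt2 the siDyrk2 value was also above siNeg.

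Interferon-stimulated genes were not higher in the knockout as a list, since 17 of 24 measured were lower, beside 53.9% of protein-coding genes. Their median was -0.12 (-0.24 to 0.04) against -0.19 for the controls. Isg15, a ubiquitin-like protein, was at 11.8 FPKM in the knockout, 22.8 with siDyrk2, 7.02 in wild type and 12.7 with siNeg, higher in either transfected culture than in its untransfected partner. Ifit3, whose close copy Ifit3b makes it uncertain, was at 23.5, 10.4, 9.13 and 10.1 FPKM, and so stood apart in the knockout.

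Large housekeeping groups differed little but mostly one way. Of 78 cytosolic ribosomal protein genes 61 were lower in the knockout with a median of -0.14, and of 40 nuclear genes of the respiratory chain 37 were lower with a median of -0.29. All 13 mitochondrially encoded genes were lower, with a median of -0.20. For all 13 siDyrk2 was the highest of the 4 libraries, compared with 31.1% of protein-coding genes. Of 31 proteasome subunits 29 were lower, with a median of -0.32. None of these groups had a member past 2-fold, and over all protein-coding genes 53.9% were lower in the knockout. The 33 genes of intraflagellar transport and the BBSome, which build and serve the cilium where Smoothened acts, had a median of 0.05 and 0 past 2-fold.

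**Figure D4:**
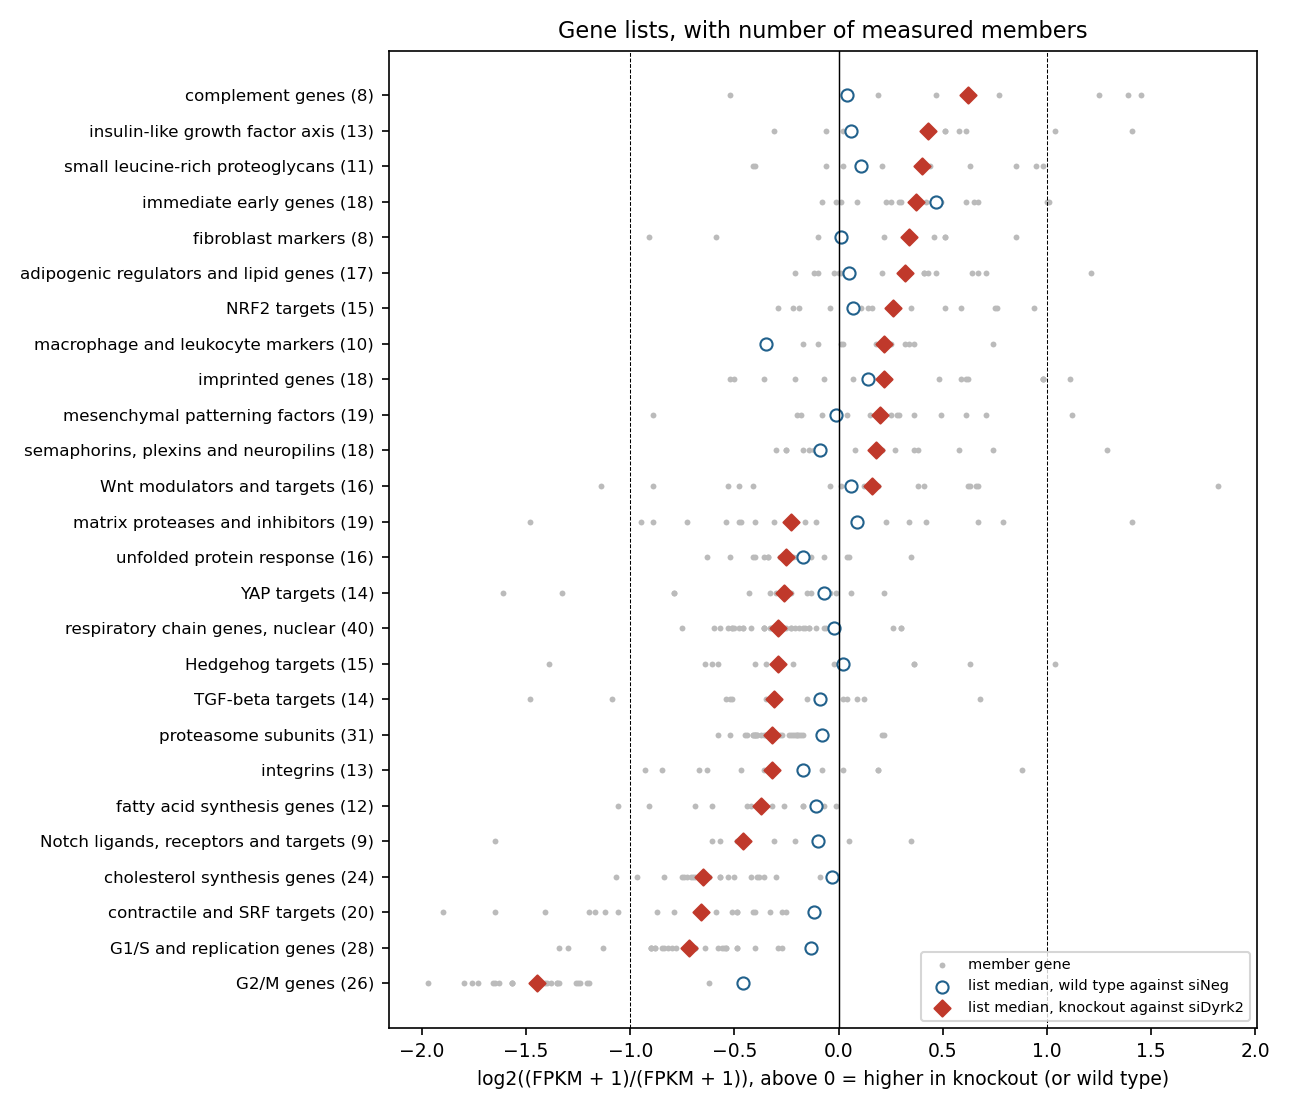
Log2 ratio of knockout to siDyrk2 for each member (grey points) and the list median (red diamonds), beside the list median of wild type to siNeg (open circles). The G2/M median lies at -1.45 and the contractile median at -0.66, both left of their controls, while the immediate early genes have medians of 0.37 and 0.47.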

How the data were processed

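Gene expression was measured by RNA sequencing of 4 libraries of primary mouse embryonic fibroblasts, 1 per group, grouped by the labels. Per the labels' protocols, libraries were stranded and made from polyA-selected RNA. Reads were handled with cutadapt 1.9.1 and HISAT2 2.0.1 on the GRCm38 build, per the submitters' processing notes. No source used here states which program counted fragments, or on which annotation. The authors deposited FPKM with 2 decimals and, per the file headers, the exonic length of each gene.

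Of 55573 identifiers, 55480 matched GENCODE M21, which gave symbols and gene types. Genes with at least 1 FPKM in either compared library were kept, and ratios are on log2(FPKM + 1), which understates the change of low genes. Ratios called fold with an interval are of FPKM without the pseudocount. The depth at which 335 to 395 genes of at most 200 bases fell on whole fragments, within 0.1 fragment, was 21.9 M (knockout), 21.5 M (siDyrk2), 23.9 M (wild type) and 20 M fragments (siNeg; M, 1000000), and 100% of those genes did so. From it came fragments per gene and exact conditional binomial (Clopper-Pearson) 95% intervals. These cover counting error only, and a floor of 3 fragments was used where a library was at 0. No test was made, since a group is 1 library, and genes were counted at 2-fold or more. The interval of a list median is taken from order statistics of its genes.

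The members and lists were chosen with earlier results of these data known. A rule chose the genes for the text: Dyrk2, Hedgehog targets and their co-receptors, the 12 highest and 12 lowest ratios among protein-coding genes at 5 FPKM or more, the 8 highest and 8 lowest differences from the control ratio, and up to 4 members of each list. Some other genes, among them Gpc3, Foxm1 and Wwtr1, and the counts of libraries that stand apart were added after the values were seen. Motifs were searched on both strands in RefSeq promoters. Python 3.11.15, pandas 2.3.3 and scipy 1.17.1 were used, and the steps were tested on simulated data. Alternatives changed the pseudocount, the filter, the gene types and the scaling.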

Additional observations from a re-analysis of the deposited data

Results flagged for a closer look

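In 10 of the genes selected by rule, all with at least 5 FPKM in the knockout or with siDyrk2, the knockout differed one way from wild type and siDyrk2 the other way from siNeg, each by at least 1.5-fold. These differences were not tested, with 1 library per group, and each value is the log2 ratio of knockout to wild type minus that of siDyrk2 to siNeg. The rule took the 8 highest and 8 lowest of these same values, so most of the genes were chosen for a large value. How many of all protein-coding genes show such opposite differences was not counted. The muscle and cytoskeletal genes Acta1 (-1.91), Actg2 (-1.88), Tubb3 (-1.61), Acta2 (-1.58) and Tagln (-1.24) were lower in the knockout than in wild type and higher with siDyrk2 than with siNeg. Scg2, a secretory granule protein, had a value of -1.77, at 3.76 FPKM in the knockout, 7.02 with siDyrk2, 6.65 in wild type and 2.77 with siNeg. The opposite pattern held for the secreted proteins Egfl6 (1.37) and Itgbl1 (1.61), for Tmem200b (1.39) and for AW551984 (1.48). Itgbl1 was at 43.9 FPKM in the knockout, 13.8 with siDyrk2, 24.8 in wild type and 25.0 with siNeg, so both controls lay between the low-Dyrk2 libraries. In Scg2 the controls also differed, with a log2 ratio of 1.02 for wild type over siNeg beside -0.75 for knockout over siDyrk2.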

How the results depend on the processing

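The counts of genes past 2-fold depended on the pseudocount and the filter. The 151 genes higher in the knockout became 291 with a pseudocount of 0.1, 37 with 5, 100 with at least 1 FPKM in both libraries and 64 with at least 10 FPKM in either. The 203 genes higher with siDyrk2 became 460, 29, 137 and 59. TMM and median-of-ratios scaling both gave 169 and 186, and a filter of more than 20 fragments, chosen after seeing the data, gave 114 and 156. The G2/M median of -1.45 became -1.74 with a pseudocount of 0.1, -0.86 with 5 and -1.63 at 10 FPKM or more. The Hedgehog target median of -0.29 became -0.25 under both scalings and -0.02 at 10 FPKM or more. Of the list medians, 1 changed sign under each scaling, that of the p53 targets, and 4 at 10 FPKM or more (Hedgehog pathway components, heat shock proteins, intraflagellar transport and BBSome, and matricellular glycoproteins), none of them 0.2 or larger. No paired analysis was possible because each group holds 1 library, and no library could be left out. Counting intervals do not cover differences between cultures, and genes at a few fragments, such as Gli1 in the knockout with 26, have wide ones.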

Other observations

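Developmental gene groups differed little between the knockout and siDyrk2. Of 18 measured imprinted genes 13 were higher in the knockout, beside 45.7% of protein-coding genes, with a median log2 ratio of 0.22 (-0.07 to 0.62 over genes) against 0.14 for the controls. Zim1, an imprinted zinc finger gene, was at 10.5 FPKM in the knockout, 4.80 with siDyrk2, 27.3 in wild type and 23.3 with siNeg, so it was low in both low-Dyrk2 libraries and lowest with siDyrk2. Of 19 mesenchymal patterning factors 14 were higher, with a median of 0.20 (from just under 0 to 0.36), and Osr2, a zinc finger factor of limb and palate, was at 21.5, 9.37, 11.3 and 9.89 FPKM. Hox genes had a median of -0.12 over 26 measured members, beside -0.16 for the controls, and 0 were past 2-fold.

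Kif1a, a motor protein of axonal transport, was level between the compared libraries but low in 1 control: 18.3 FPKM in the knockout, 17.9 with siDyrk2, 15.8 in wild type and 3.92 with siNeg.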
